A study of Mus musculus with 9 samples.

Results

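The granule and S100 genes of neutrophils were examined in mouse dendritic cells (DC) treated with butyrate or trichostatin A (TSA) or left untreated. The set holds 10 genes of the 12393 measured, read by 11 of the 22690 probe sets on the arrays, and its members were taken by gene symbol from probe sets annotated with exactly 1 gene. They are S100a8 and S100a9, the primary granule genes Elane, Mpo and Prtn3, the secondary granule genes Camp, Ltf, Ngp and Lcn2, and the tertiary granule gene Mmp9. RNA was measured on 9 one-colour Affymetrix arrays, 3 each of butyrate-treated, TSA-treated and untreated cells. All 3 groups came from spleens of mice aged 6 to 8 weeks that bore B16 melanoma tumours secreting the DC growth factor Flt3L, and cells were enriched with magnetic beads against CD11c. The labels state neither dose nor treatment time, nor whether arrays of a group came from separate mice, so p-values measure the spread between these samples, which may be technical. Butyrate is a short-chain fatty acid and TSA a hydroxamic acid, and both inhibit histone deacetylases.

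Neutrophils build their granules in sequence as they mature. Primary (azurophil) granules are filled in promyelocytes with myeloperoxidase and serine proteases, secondary (specific) granules later with antimicrobial and metal-binding proteins, and tertiary (gelatinase) granules last. S100A8 and S100A9 form calprotectin, a cytosolic complex that binds calcium and zinc and is abundant in neutrophils and monocytes. DC are not known as a main source of most of these products, and a CD11c selection of spleen can carry along neutrophils, monocytes and their precursors. In bulk RNA, fewer cells of a type and less RNA per cell cannot be told apart.

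The proximal promoters of the 3 primary granule genes and of Ngp, Ltf and Camp are shown because genes of 1 granule class moved unlike each other; those of Lcn2, S100a8 and S100a9 were searched but are not printed. RefSeq promoters (GRCm38.p6) were found for 9 of the 10 genes, and the 250 bases before the start site were searched on both strands for 4 motifs. They were the C/EBP motif TTGCNNAA, the PU.1 motif GAGGAAGT, the TATA box in the form TATAAA, and the GC box in the form GGGCGG. No matches of different motifs overlapped. The 3 primary granule promoters each hold 1 match to GAGGAAGT, shown in capitals. It begins 85 bases before the start in Elane, 95 in Prtn3 and 224 in Mpo.
Elane, chr10:79886062-79886311, strand +: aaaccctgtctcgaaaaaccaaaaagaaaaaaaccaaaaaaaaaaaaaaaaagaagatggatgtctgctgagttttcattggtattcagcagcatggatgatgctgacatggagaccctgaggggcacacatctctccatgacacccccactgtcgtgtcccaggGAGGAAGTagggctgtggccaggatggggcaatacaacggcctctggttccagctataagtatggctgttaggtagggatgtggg
Prtn3, chr10:79879417-79879666, strand +: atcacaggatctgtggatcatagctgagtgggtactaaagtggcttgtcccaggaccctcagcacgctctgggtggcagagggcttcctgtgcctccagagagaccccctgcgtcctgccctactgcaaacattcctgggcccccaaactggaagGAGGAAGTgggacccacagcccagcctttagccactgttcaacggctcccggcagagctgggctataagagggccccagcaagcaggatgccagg
Mpo, chr11:87793534-87793783, strand +: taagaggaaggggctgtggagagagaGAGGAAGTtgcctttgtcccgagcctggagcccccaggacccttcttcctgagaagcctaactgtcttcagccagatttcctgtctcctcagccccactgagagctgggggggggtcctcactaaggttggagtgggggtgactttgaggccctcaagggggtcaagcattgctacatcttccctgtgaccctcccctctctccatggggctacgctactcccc

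GAGGAAGT also lies in the S100a8 promoter, on the opposite strand 172 bases before the start, so 4 of 9 members hold it, against 2.44% of all 32851 promoters of that length. TTGCNNAA lies in Ngp (138 and 11 bases before the start), Ltf (75), Lcn2 (216) and S100a9 (236), again 4 of 9 members, against 9.56% of all promoters. TATAAA was found in S100a8 alone among the members (30 bases before the start) and in 12.4% of all promoters, and GGGCGG in S100a9 and Lcn2 and in 32.7%. These are letter matches, not measured binding sites. In the promoters of the secondary granule genes Ngp, Ltf and Camp, capitals mark TTGCNNAA on either strand, and Camp holds none of the 4 motifs in this window.
Ngp, chr9:110419558-110419807, strand +: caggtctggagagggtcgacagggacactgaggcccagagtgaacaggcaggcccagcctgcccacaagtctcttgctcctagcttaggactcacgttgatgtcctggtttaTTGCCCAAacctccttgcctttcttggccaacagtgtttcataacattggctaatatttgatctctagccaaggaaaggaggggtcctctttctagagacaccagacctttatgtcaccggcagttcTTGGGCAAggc
Ltf, chr9:111019042-111019291, strand +: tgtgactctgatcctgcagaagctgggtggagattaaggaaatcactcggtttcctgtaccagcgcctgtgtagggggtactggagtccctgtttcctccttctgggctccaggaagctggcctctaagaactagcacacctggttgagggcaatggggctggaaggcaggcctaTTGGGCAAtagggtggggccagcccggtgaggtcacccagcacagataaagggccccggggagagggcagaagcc
Camp, chr9:109849457-109849706, strand -: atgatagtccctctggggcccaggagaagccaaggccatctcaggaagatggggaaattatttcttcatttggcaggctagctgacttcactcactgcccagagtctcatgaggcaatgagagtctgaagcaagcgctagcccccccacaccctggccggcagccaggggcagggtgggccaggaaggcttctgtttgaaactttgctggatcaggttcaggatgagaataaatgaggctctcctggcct

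With TSA, 7 of the 10 genes were called lower and 0 higher by limma at an adjusted p under 0.05, beside 21.0% of all genes called lower and 26.3% called higher. With butyrate, 5 were called lower and 3 higher, beside 24.8% and 33.6% of all genes. The members' median log2 change was −0.55 with TSA and −0.21 with butyrate, and that of all genes was 0.03 and 0.08. Camp changed most in both comparisons, Mmp9 was next, and S100a8 and S100a9 moved least with TSA. The 2 comparisons share the untreated arrays.

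The scale of the butyrate arrays bears on every small butyrate value. Bacterial transcripts added before hybridization (14 probe sets) averaged 10.99 ± 0.06 in butyrate, 10.61 ± 0.03 in TSA and 10.57 ± 0.08 in untreated samples (log2 level, SD, n = 3). Setting these spike-ins equal shifts each butyrate change against untreated cells by −0.417 and moves the median of all genes to −0.333. The calls over all genes go to 927 higher and 8441 lower, against 4166 and 3075 on the deposited scale. The same step shifts TSA changes by only −0.0343. A butyrate rise smaller than the shift therefore holds only relative to the bulk of genes and is a fall on the spike-in scale. Spike-ins added only at hybridization cannot report RNA per cell, so which scale is closer to it was not tested.

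**Figure D1:**
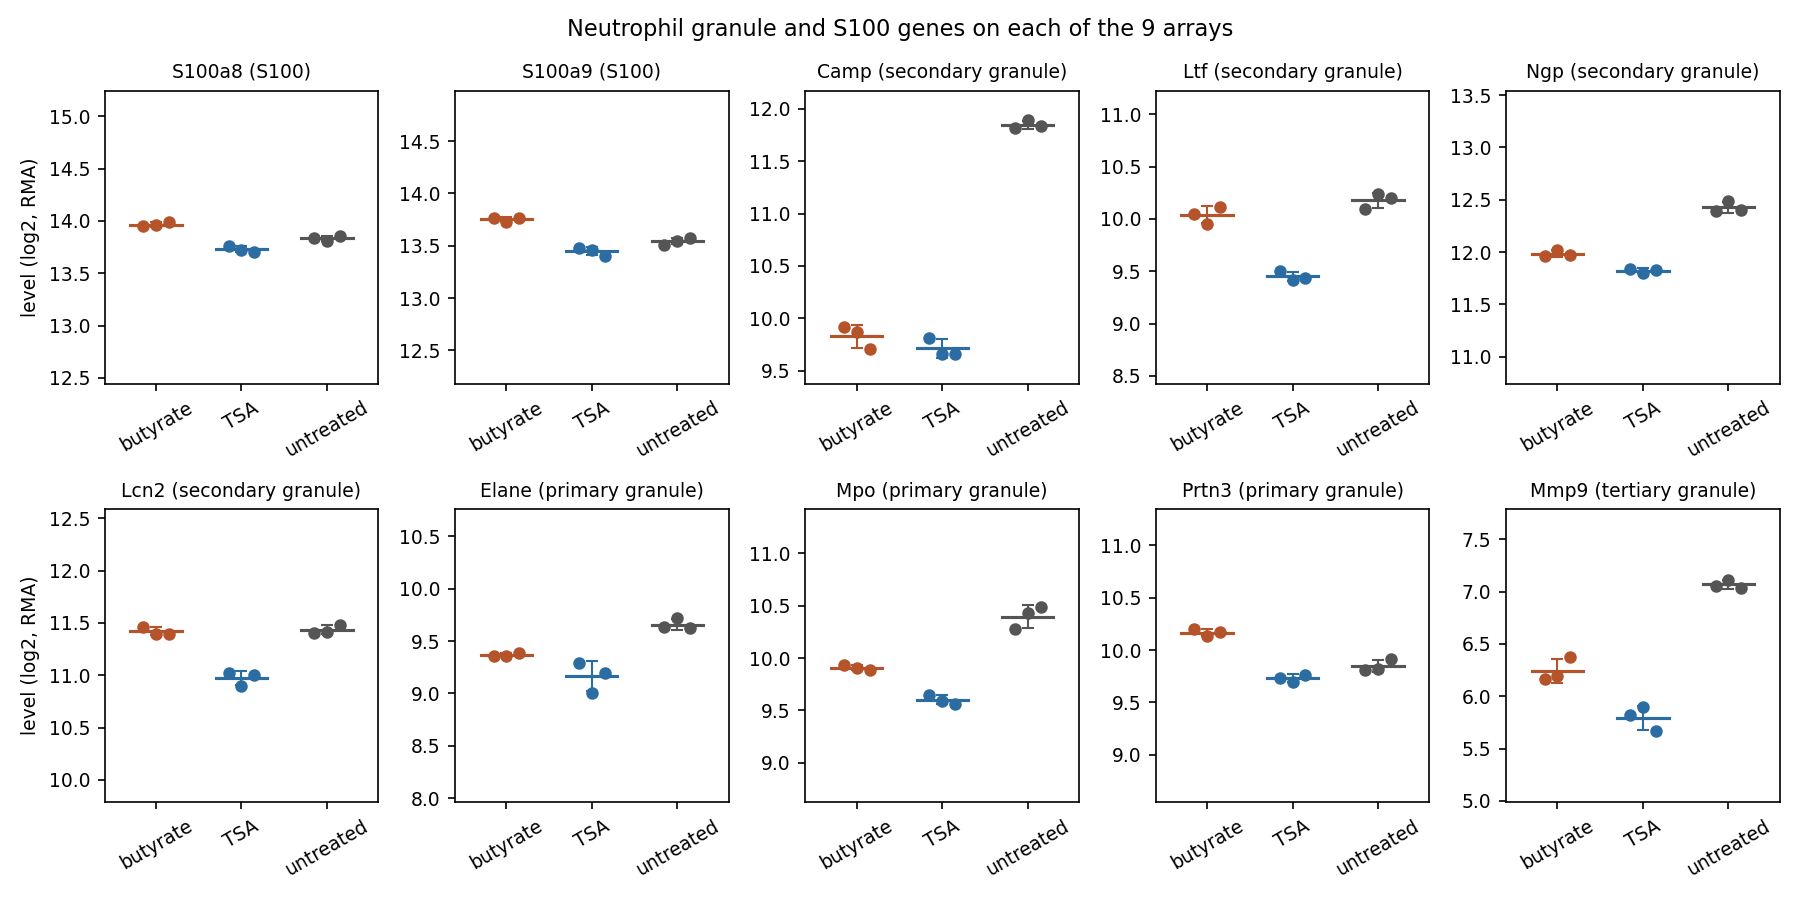
Log2 level (RMA) of the probe set representing each of the 10 genes on every array, with the group mean (bar) and SD (whiskers, n = 3); every panel spans 2.8 log2 units. Camp averaged 9.83 with butyrate and 9.71 with TSA against 11.85 in untreated samples, while the group means of S100a8 and S100a9 lie within 0.31 of each other.

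S100a8 and S100a9 were read at the top of the arrays and moved little. S100a8 had levels of 13.95, 13.96 and 13.99 in butyrate samples, 13.76, 13.73 and 13.70 in TSA samples and 13.84, 13.81 and 13.85 in untreated samples. The butyrate arrays were all the highest and the TSA arrays all the lowest, with no overlap. S100a8 was called higher with butyrate by 0.13 ± 0.044 (log2 change, limma SE, adjusted p = 0.0236), a 1.10-fold difference. The call was lost without untreated replicate 2 (adjusted p = 0.0694) or butyrate replicate 3 (0.0668), and the change was −0.284 on the spike-in scale. With TSA S100a8 was not called (−0.10 ± 0.044, adjusted p = 0.0805), with a 95% confidence interval of −0.20 to −0.01. In some other settings it was called lower with TSA, among them a further quantile normalization (−0.14, adjusted p = 0.0207).

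S100a9, the partner of S100a8 in calprotectin, had levels of 13.76, 13.73 and 13.76 in butyrate samples, 13.48, 13.46 and 13.40 in TSA samples and 13.51, 13.55 and 13.57 in untreated samples. The order of the groups was that of S100a8, again with no overlap. It was called higher with butyrate (0.21 ± 0.045, adjusted p = 0.00258), which became −0.209 on the spike-in scale, and not called with TSA (−0.10 ± 0.045, adjusted p = 0.108). On each array these probe sets were brighter than at least 99.2% of the others. Whether such brightness limits a measured rise was not tested. The S100a8 probe set carries the suffix by which Affymetrix marks sets that can match more than 1 transcript.

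Other S100 genes moved in both directions. Of 11 measured, 1 was called higher and 3 lower with TSA, and 2 higher and 3 lower with butyrate. The shares called lower lie near those of all genes, 21.0% with TSA and 24.8% with butyrate. Among all genes 26.3% were called higher with TSA and 33.6% with butyrate. With so few S100 genes the counts are not read as differing from these. On the spike-in scale the butyrate counts were 0 higher and 10 lower, beside 7.48% and 68.1% of all genes. S100a4 and S100a6, which lie beside S100a8 in the S100 cluster of chromosome 3, both fell. S100a4, tied to cell motility, averaged 12.17 ± 0.02 in butyrate, 12.12 ± 0.08 in TSA and 12.90 ± 0.01 in untreated samples (SD, n = 3), changes of −0.73 ± 0.051 and −0.78 ± 0.051 against untreated cells (adjusted p = 6.65e-07 and 5.27e-07). S100a6 fell by 0.81 ± 0.051 with butyrate and by 0.62 ± 0.051 with TSA.

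S100a10, which pairs with annexin A2, rose by 0.53 ± 0.060 with butyrate and 0.39 ± 0.060 with TSA, and S100a13 fell by 0.42 ± 0.053 and 0.15 ± 0.053. The probe sets of S100a10 and S100a1 carry suffixes by which Affymetrix marks sets that can match more than 1 transcript. S100a1 was called higher with butyrate alone (0.20 ± 0.055, against 0.02 ± 0.055 with TSA). The direct comparison, which uses the same butyrate arrays, also called it higher (0.18 ± 0.055, adjusted p = 0.0284). Both S100a1 rises are smaller in size than the spike-in shifts, −0.417 against untreated cells and −0.383 against TSA. The remaining 6, S100a3, S100a5, S100a14, S100a16, S100b and S100g, were called with neither treatment, with changes from −0.20 to 0.13. S100a5, between S100a4 and S100a6 in order on the chromosome, read −0.13 with butyrate and −0.20 with TSA from a level of 5.68 in untreated samples. The 25th percentile of the arrays lay between 4.97 and 5.09 and their lowest values between 3.03 and 3.11. How far a fall of such dim genes could be measured was not tested.

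**Figure D2:**
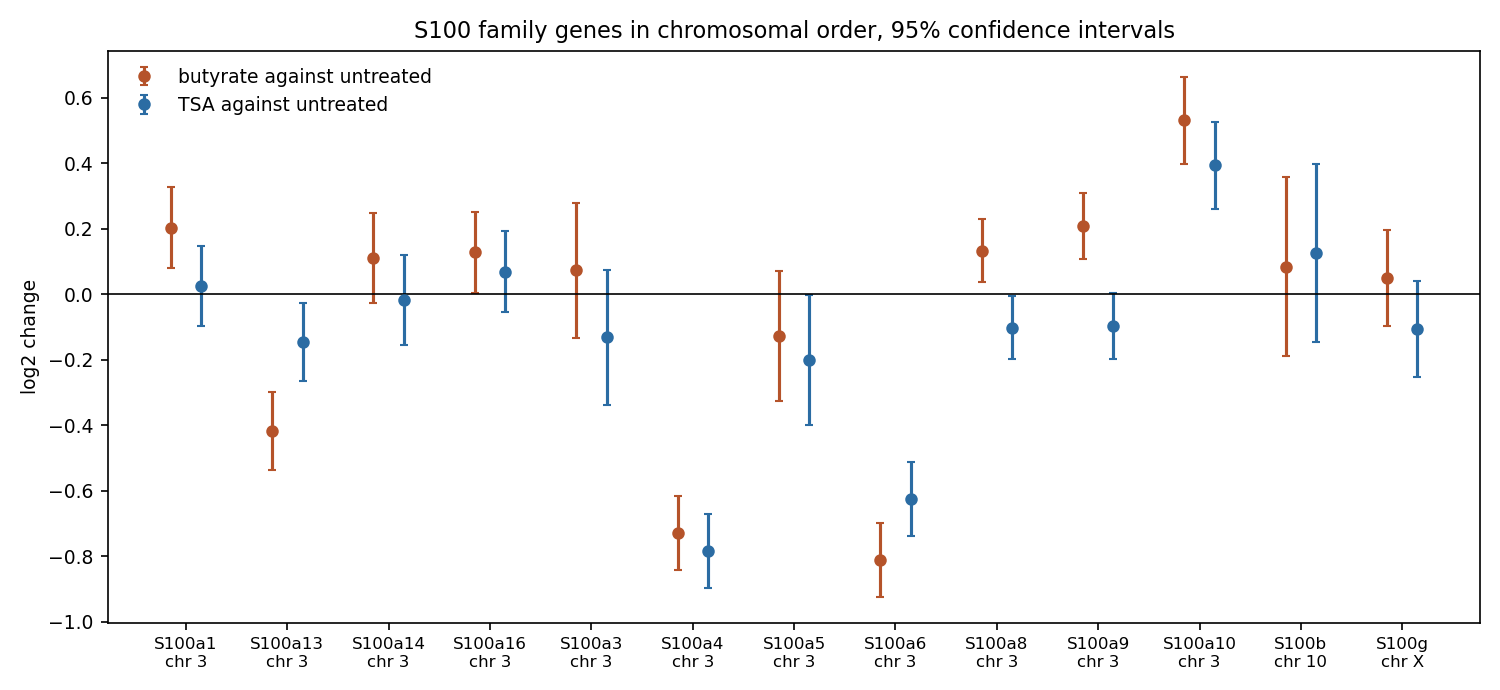
Log2 change of each of 13 measured S100 genes against untreated cells, with 95% confidence intervals from limma; genes stand in chromosomal order and butyrate is drawn left of TSA. S100a4 and S100a6 lie between −0.81 and −0.62, while S100a8 and S100a9 lie between −0.10 and 0.21 beside them.

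The secondary granule genes all fell with TSA but by unequal amounts. Camp, which encodes the antimicrobial peptide precursor cathelicidin, had levels of 9.91, 9.87 and 9.70 in butyrate samples, 9.81, 9.66 and 9.66 in TSA samples and 11.81, 11.89 and 11.84 in untreated samples. The treated groups overlapped each other and lay far below untreated cells. Camp was 4.06-fold lower with butyrate (−2.02 ± 0.067, adjusted p = 5.35e-09) and 4.40-fold lower with TSA (−2.14 ± 0.067, adjusted p = 8.2e-09). Over the alternatives tried the log2 change ran from −2.44 to −1.92 with butyrate and from −2.19 to −2.10 with TSA.

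Ltf, the iron-binding lactoferrin, had levels of 10.05, 9.96 and 10.12 in butyrate samples, 9.50, 9.42 and 9.44 in TSA samples and 10.10, 10.24 and 10.20 in untreated samples. TSA arrays stood alone below the rest, and butyrate and untreated arrays overlapped. Ltf fell 1.66-fold with TSA (−0.73 ± 0.059, adjusted p = 2.7e-06) and was not called with butyrate (−0.14 ± 0.059, adjusted p = 0.0649). The butyrate interval was −0.27 to −0.01, and the gene was called lower in 5 other settings, among them without untreated replicate 1 (−0.18) or butyrate replicate 3 (−0.18) and on the spike-in scale (−0.557).

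Lcn2, lipocalin 2, which binds bacterial siderophores, had levels of 11.46, 11.40 and 11.40 in butyrate samples, 11.02, 10.89 and 10.999 in TSA samples and 11.40, 11.41 and 11.48 in untreated samples. Its pattern was that of Ltf, with TSA arrays apart and the others overlapping. It fell 1.38-fold with TSA (−0.46 ± 0.052, adjusted p = 2.93e-05) and changed by −0.01 ± 0.052 with butyrate (adjusted p = 0.83, interval −0.13 to 0.10), or −0.431 on the spike-in scale, where it was called lower.

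Ngp, neutrophilic granule protein, a cystatin-like relative of cathelicidin, had levels of 11.96, 12.02 and 11.97 in butyrate samples, 11.84, 11.80 and 11.83 in TSA samples and 12.39, 12.49 and 12.40 in untreated samples. The groups formed 3 separate steps with untreated cells on top. Ngp fell 1.36-fold with butyrate (−0.44 ± 0.048, adjusted p = 1.77e-05) and 1.52-fold with TSA (−0.61 ± 0.048, adjusted p = 2.1e-06). Within an array, Camp minus Ngp was −2.27 to −2.05 in butyrate, −2.17 to −2.03 in TSA and −0.60 to −0.56 in untreated samples. The absolute size of such a difference between probe sets has no meaning. Its move is free of a uniform shift of an array, but not of scaling that varies with intensity. This pair and the next were chosen after their values were seen, so no test is given.

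Primary granule genes split. Mpo, myeloperoxidase, the enzyme that makes hypochlorous acid, had levels of 9.94, 9.91 and 9.88 in butyrate samples, 9.65, 9.59 and 9.57 in TSA samples and 10.27, 10.43 and 10.48 in untreated samples. The 3 groups did not overlap. Mpo fell 1.40-fold with butyrate (−0.49 ± 0.060, adjusted p = 5.07e-05) and 1.73-fold with TSA (−0.79 ± 0.060, adjusted p = 1.58e-06).

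Elane, neutrophil elastase, had levels of 9.36, 9.36 and 9.39 in butyrate samples, 9.29, 9.01 and 9.19 in TSA samples and 9.63, 9.72 and 9.62 in untreated samples. Both treated groups lay below untreated cells, and TSA arrays varied most. Elane fell 1.22-fold with butyrate (−0.29 ± 0.070, adjusted p = 0.00512) and 1.41-fold with TSA (−0.49 ± 0.070, adjusted p = 0.000167).

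Prtn3, proteinase 3, an elastase-like protease whose gene is the neighbour of Elane on chromosome 10, had levels of 10.20, 10.13 and 10.17 in butyrate samples, 9.74, 9.70 and 9.77 in TSA samples and 9.81, 9.82 and 9.92 in untreated samples. Butyrate arrays were highest and TSA arrays lowest, without overlap. Prtn3 was called higher with butyrate (0.32 ± 0.049, adjusted p = 0.000275), against −0.099 and no call on the spike-in scale. It was not called with TSA (−0.12 ± 0.049, adjusted p = 0.0791, interval −0.23 to −0.01). Within an array, Prtn3 minus Elane was 0.772 to 0.842 in butyrate, 0.443 to 0.688 in TSA and 0.102 to 0.295 in untreated samples. A uniform shift of an array, such as the spike-in step, leaves these differences as they are.

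Mmp9, the gelatinase of tertiary granules that is also made by macrophages and DC, was the dimmest member and had 2 probe sets. The brighter had levels of 6.17, 6.19 and 6.38 in butyrate samples, 5.82, 5.89 and 5.67 in TSA samples and 7.06, 7.11 and 7.03 in untreated samples. The groups formed 3 separate steps. Mmp9 fell 1.77-fold with butyrate (−0.82 ± 0.074, adjusted p = 4.49e-06) and 2.42-fold with TSA (−1.28 ± 0.074, adjusted p = 2.47e-07). The dimmer probe set read −0.47 ± 0.111 with butyrate and −0.67 ± 0.111 with TSA (adjusted p = 0.00472 and 0.000599 over all probe sets), the same direction at a smaller size.

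**Figure D3:**
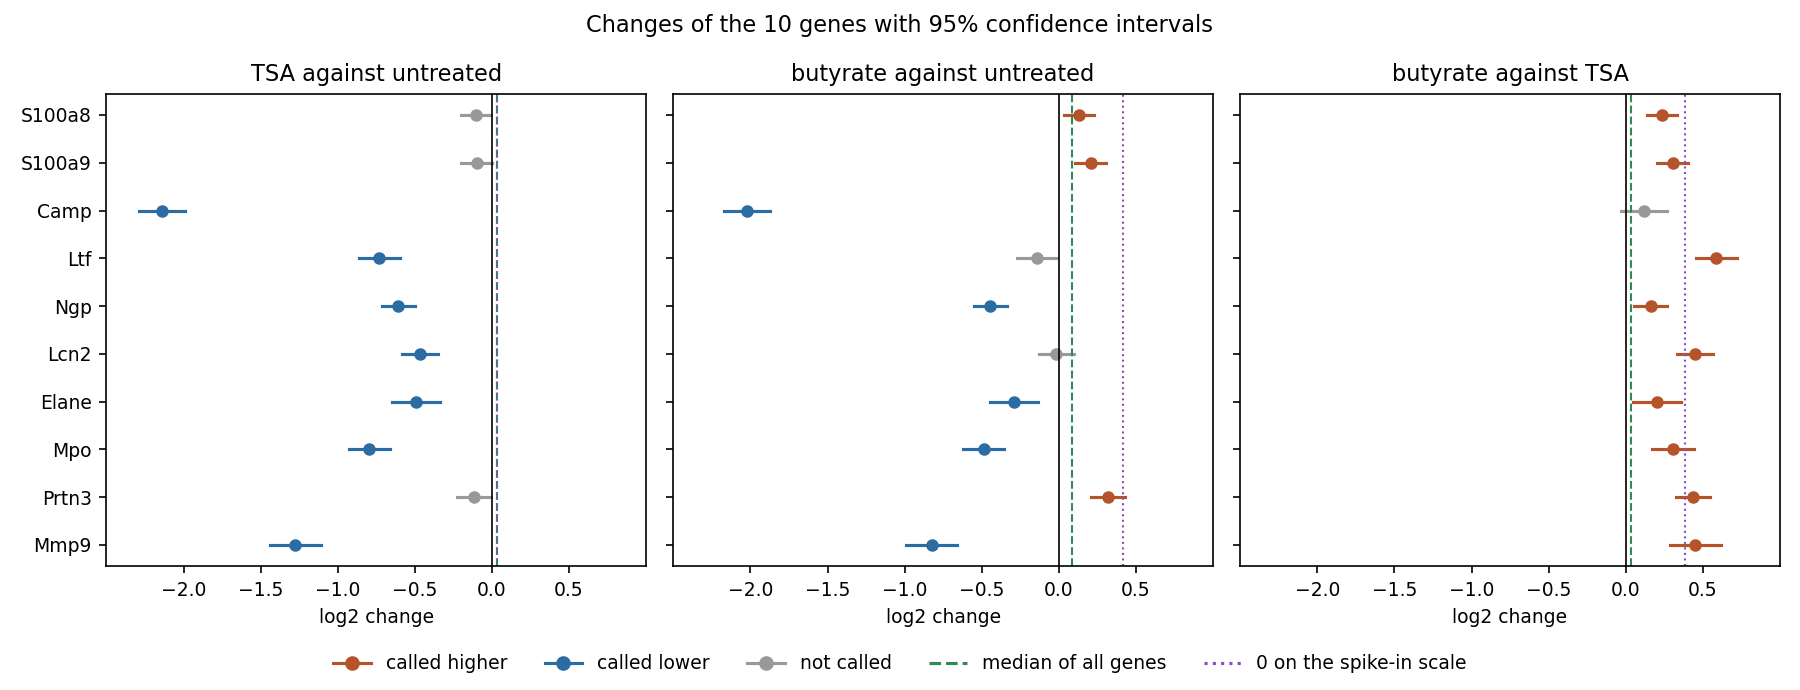
Log2 change of each of the 10 genes with its 95% confidence interval in the 3 comparisons, coloured by the call at an adjusted p under 0.05; the dashed line is the median of all genes and the dotted line the value that becomes 0 on the spike-in scale. Camp lies near −2 against untreated cells with either treatment, and in butyrate against TSA 6 of the 10 genes lie between 0 and the dotted line.

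Set directly against TSA, 9 of the 10 genes were called higher in butyrate samples and 0 lower, beside 15.9% of all genes called higher and 20.0% lower. The members' median change was 0.31 and that of all genes 0.03. Ltf differed most (0.59 ± 0.059, adjusted p = 7e-05), then Mmp9 (0.45 ± 0.074, adjusted p = 0.00117), Lcn2 (0.45 ± 0.052, adjusted p = 0.000152) and Prtn3 (0.44 ± 0.049, adjusted p = 0.00014). Mpo, S100a9, S100a8, Elane and Ngp were higher by 0.31, 0.31, 0.24, 0.20 and 0.16 (adjusted p from 0.000642 to 0.0447), and Camp was not called (0.12 ± 0.067, adjusted p = 0.202, interval −0.03 to 0.27). On the spike-in scale 0 members were called higher and 2 lower, Camp by 0.265 and Ngp by 0.22, where 0.815% of all genes were called higher and 77.8% lower. The call of Elane (adjusted p = 0.0447) was lost in most other settings, and that of Ngp (0.0233) without TSA replicate 2 (0.0769), TSA replicate 3 (0.056) or butyrate replicate 2 (0.0736). The call of Mmp9 came from its brighter probe set, since the dimmer one was not called (0.20 ± 0.111, adjusted p = 0.21 over all probe sets).

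Other granule genes were called lower more often than higher. Of 6 other measured genes listed with primary granules, 4 were called lower and 2 higher with each treatment, with a median of −0.34 with butyrate and −0.32 with TSA. Among all genes 24.8% were called lower and 33.6% higher with butyrate, and 21.0% and 26.3% with TSA. With so few genes, the counts of this list are not read as differing from those of all genes. The list is wider than granule contents, since it includes Ms4a3 and Serpinb1a. Ctsg, cathepsin G, the other main serine protease of primary granules, fell by 1.07 ± 0.070 with butyrate and by 1.04 ± 0.070 with TSA. Ms4a3, a marker of granulocyte and monocyte progenitors, fell by 1.41 ± 0.075 and 1.10 ± 0.075. Ctsc, which activates these proteases, fell by 0.39 and 0.26, and Lyz2, lysozyme, by 0.30 and 0.38. Srgn, the proteoglycan that packs granule proteases, was 0.26 higher with butyrate and 0.17 higher with TSA, and Serpinb1a, the cytosolic inhibitor of neutrophil proteases, was 0.24 and 0.82 higher. The butyrate rises of Srgn and Serpinb1a are smaller than the spike-in shift. On that scale 0 of the 6 genes were called higher with butyrate, beside 7.48% of all genes.

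Of 12 other measured genes of secondary and tertiary granules, 8 were called lower and 2 higher with butyrate (median −0.67), and 10 lower and 0 higher with TSA (median −0.77). The shares of all genes were 24.8% lower and 33.6% higher with butyrate, and 21.0% and 26.3% with TSA. Mmp8, neutrophil collagenase, averaged 6.81 ± 0.14 in butyrate, 7.68 ± 0.19 in TSA and 9.07 ± 0.05 in untreated samples (SD, n = 3), changes of −2.27 and −1.39. Cyba and Cybb, the subunits of flavocytochrome b of the phagocyte oxidase, fell by 1.93 and 1.35 with butyrate and by 1.86 and 1.30 with TSA. Hp, haptoglobin, fell by 1.40 and 1.30, and Slpi, a secreted protease inhibitor, by 0.80 and 1.13. Chil3 and Cd177 were called higher with butyrate (0.23 and 0.17), both within the spike-in shift. On that scale 0 of the 12 were higher and 11 lower with butyrate, beside 7.48% and 68.1% of all genes.

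Transcription factors listed as regulators of granule genes were called lower in 8 of 11 cases with butyrate and 7 of 11 with TSA, with 1 and 0 higher. Among all genes 24.8% and 21.0% were called lower. On the spike-in scale 10 of the 11 were lower with butyrate, beside 68.1% of all genes. Whether these factors bear on the members' changes in these cells was not tested. Spi1, which encodes PU.1, averaged 9.45 ± 0.06 in butyrate, 9.93 ± 0.03 in TSA and 10.90 ± 0.04 in untreated samples (SD, n = 3). Its changes were −1.45 ± 0.050 and −0.97 ± 0.050 against untreated cells (adjusted p = 6.65e-09 and 1.21e-07). Myb fell by 1.31 with butyrate and by 0.85 with TSA, and Cebpd by 1.25 and 0.71. Gfi1, a repressor needed for granulopoiesis, was called lower with both, averaging 4.71 in butyrate, 5.42 in TSA and 6.23 in untreated samples. Its butyrate level lay below the 25th percentile of the arrays, so the size of that fall may be limited by its dimness. Cebpb fell by 0.80 with butyrate and by 1.12 with TSA. Cebpa read 0.01 with butyrate, not called, and fell by 0.14 with TSA (adjusted p = 0.0443). Cebpe is not analysed here.

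Of 12 receptors of the member proteins, 6 were called higher and 4 lower with butyrate, and 2 higher and 4 lower with TSA. Among all genes the shares were 33.6% higher and 24.8% lower with butyrate, and 26.3% and 21.0% with TSA, and with so few receptors the counts are not read as differing from these. Fpr2, a formyl peptide receptor that also binds cathelicidin, changed by −2.21 with butyrate and −2.08 with TSA, lower in both. Cd36 fell by 2.41 and 1.46, Lrp1, an endocytic receptor for lactoferrin, by 0.74 and 1.03, and Tlr4, a receptor for calprotectin, by 0.57 and 0.47. Mcam was called higher with both from a dim untreated level (5.62 in butyrate, 5.24 in TSA and 4.73 in untreated samples). The lipocalin 2 receptor Slc22a17 was higher by 0.40 and 0.39, a butyrate rise within the spike-in shift. Of 8 inhibitors of the member proteases, which share Serpinb1a and Slpi with the granule lists, 4 were called higher and 3 lower with butyrate, and 2 higher and 3 lower with TSA, and these counts are likewise not read as differing from those of all genes. Timp2 fell by 0.37 with butyrate and by 0.77 with TSA, and Reck, a membrane inhibitor of MMP9, was 0.34 and 0.66 higher. Timp1 was 0.35 higher with butyrate from a dim level (4.64 in untreated samples). On the spike-in scale 0 of the 8 inhibitors and 1 of the 12 receptors were called higher with butyrate, beside 7.48% of all genes.

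Lists of markers of other cell types were set beside the members, those of cells that do not express them included. Among all genes 24.8% were called lower and 33.6% higher with butyrate, and 21.0% and 26.3% with TSA. On the spike-in scale 68.1% of all genes were called lower and 7.48% higher with butyrate. Of 16 measured neutrophil markers, which share Mmp8, Cd177 and Fpr2 with the lists above, 9 were called lower and 4 higher with butyrate, and 11 lower and 1 higher with TSA. On the spike-in scale the butyrate counts were 14 lower and 1 higher. The mean level over the list ran from 6.90 to 6.95 in butyrate, 6.82 to 6.88 in TSA and 7.51 to 7.52 in untreated samples. Csf3r, the G-CSF receptor, fell by 1.16 ± 0.118 and 1.07 ± 0.118. Cxcr2, a defining receptor of mature neutrophils, was dim, at 5.52 ± 0.01 in butyrate, 5.30 ± 0.06 in TSA and 5.31 ± 0.10 in untreated samples (SD, n = 3). Stfa3 and Trem1 were likewise dim, averaging 3.96 and 4.75 in untreated samples. Il1r2, the decoy interleukin 1 receptor, went furthest against the list, 1.89 higher with butyrate and 0.57 higher with TSA. Cxcr2, Hdc and Padi4 also averaged higher with butyrate than untreated, Hdc at 7.07 against 6.65 and Padi4 at 6.79 against 6.62. These rises are smaller than the spike-in shift, and Padi4 averaged 5.72 with TSA. Among the markers that fell, Clec4e averaged 7.26 in butyrate, 9.09 in TSA and 9.61 in untreated samples. Cxcr4 averaged 10.23, 10.67 and 11.81 in that order. Ly6g is not analysed here.

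Of 16 monocyte and macrophage markers, which share Lyz2 with the primary granule list, 14 were called lower and 0 higher with butyrate, and 15 and 0 with TSA, with mean levels of 7.57 to 7.68 in butyrate, 7.86 to 7.92 in TSA and 8.69 to 8.79 in untreated samples. Of 10 markers of myeloid progenitors, which share Ctsg, Ms4a3, Myb and Cebpa with the lists above, 5 were lower and 2 higher with butyrate, and 7 lower and 2 higher with TSA, with mean levels of 8.29 to 8.33, 8.42 to 8.47 and 8.71 to 8.77 in butyrate, TSA and untreated samples. Of 8 basophil, mast cell and eosinophil markers, 1 was lower and 1 higher with butyrate, and 4 lower and 0 higher with TSA. With TSA, 4 of 5 erythroid, 4 of 9 B cell, 4 of 8 T cell and 3 of 7 NK cell markers were also called lower, and 0, 0, 0 and 1 higher. With butyrate 3, 2, 1 and 2 of these were lower and 1, 0, 1 and 2 higher. On the spike-in scale the butyrate counts of genes called lower were 7 of 8 for the basophil, mast cell and eosinophil list, 5 of 5 erythroid, 8 of 9 B cell, 7 of 8 T cell and 5 of 7 NK cell markers. They were 16 of 16 for monocytes and macrophages and 7 of 10 for progenitors, where 68.1% of all genes were called lower. With so few markers, counts of the basophil, mast cell and eosinophil, erythroid, B cell, T cell and NK cell lists are not read as differing from those of all genes. DC markers ranged in level from Itgae at 4.93 to H2-Aa at 14.65 in untreated samples, and moved in both directions. Flt3 averaged 10.39, 10.43 and 11.02 and Itgax, the CD11c gene, 8.50, 8.25 and 9.24 in butyrate, TSA and untreated samples. Irf4, of the same list, was highest with butyrate, at 8.40, 7.72 and 7.72. Of 16 DC markers 9 were called lower with each treatment, with 4 higher with butyrate and 1 with TSA, and on the spike-in scale 12 were lower and 1 higher with butyrate. The part of a changed share of any of these cells in the members' changes was not tested.

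**Figure D4:**
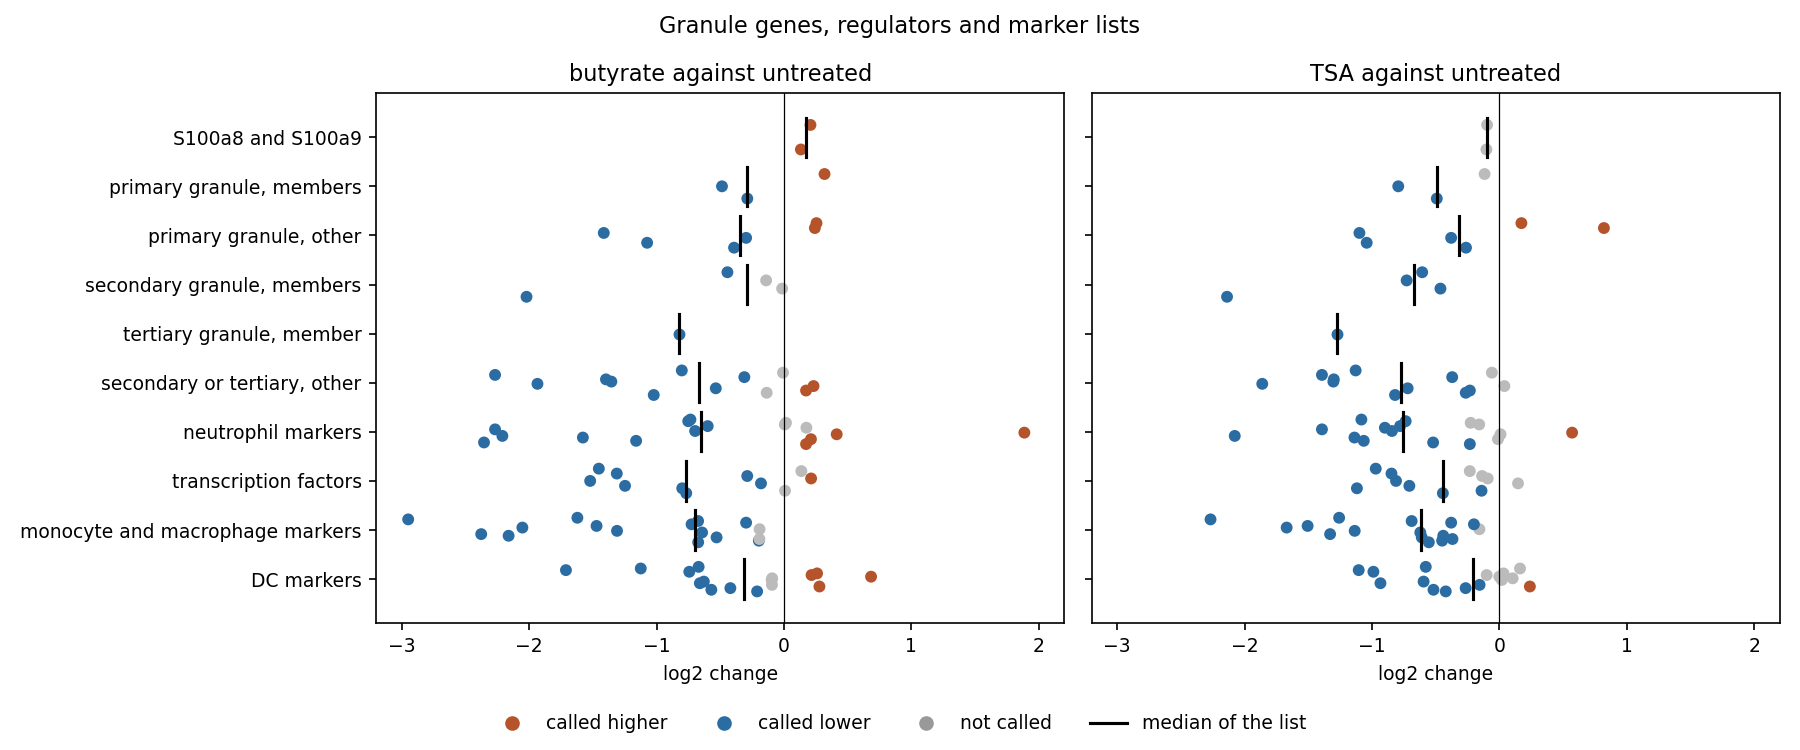
Log2 change against untreated cells of each gene of the granule, transcription factor and marker lists, with butyrate on the left and TSA on the right; points are coloured by the call at an adjusted p under 0.05 and black bars are list medians. Each median drawn lies below 0 with both treatments, apart from that of S100a8 and S100a9 with butyrate.

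Genes next to the members on the chromosome moved in both directions, by the order of measured genes in the RefSeq table (GRCm38.p6). Beside Camp on chromosome 9, Nme6 was not called with butyrate or TSA (−0.19 and −0.13) and Cdc25a was higher by 0.44 and 0.71. Beside Elane, Med16 fell by 0.82 with butyrate and by 1.12 with TSA, and beside Prtn3, Ptbp1 was higher by 0.46 and 0.53. Next to Mpo on chromosome 11, Lpo, the related lactoperoxidase, was dim (4.69 in untreated samples) and read 0.23 and 0.17, and Epx, eosinophil peroxidase, read −0.07, not called, with butyrate and fell by 0.49 with TSA. Ccrl2, beside Ltf, fell by 0.69 and 0.82, and Kif9, beside Ngp, was higher by 0.95 and 0.85.

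Camp and Mmp9 were the members whose group means spanned at least 1 log2 unit. The 3 genes with the profile most like that of Camp, by the root mean square difference over the 9 arrays after each gene's own mean was subtracted, were Ccr7 (0.068 log2 units), Ifitm1 (0.092) and Gpr31b (0.108). Ccr7, the receptor for lymph node homing, averaged 10.90 in butyrate, 10.84 in TSA and 12.91 in untreated samples. For Mmp9 they were Pdgfb (0.085), Prxl2a (0.088) and Slpi (0.089). Pdgfb, a platelet-derived growth factor chain, averaged 8.51 in butyrate, 8.15 in TSA and 9.34 in untreated samples. Likeness over 3 groups of 3 arrays is a description of these arrays only.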

How the data were processed

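Total RNA from 9 samples was measured on arrays. The authors deposited a log2 level for each of 22690 probe sets, and the submitters' processing notes name RMA as the source, a method that normalizes arrays to 1 distribution. Neither program nor version was given in the sources read here. Arrays of 1 group correlated across genes with r between 0.9971 and 0.9985, and no pair was identical. Precision is limited by having 3 arrays a group. Scan dates were not analysed here.

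Of the probe sets, 20380 carried exactly 1 gene symbol. The others were 64 controls, 691 sets with more than 1 symbol and 1555 without a name here. Gene identifiers of 20364 matched the RefSeq table (GRCm38.p6), which changed 0 symbols. For each of 12393 genes the brightest probe set by mean level stood for the gene, and all probe sets of the members were also tested. Listed genes without a row are not analysed here.

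All 9 arrays entered 1 fit over all genes, with a mean for each group, in limma 3.58.1 in R 4.3.3 (lmFit, eBayes; 6 residual and 3.9 prior degrees of freedom). Benjamini-Hochberg adjustment ran over all genes of each comparison. Calls were made at an adjusted p under 0.05. Errors after log2 changes are limma's standard errors, and every adjusted p is limma's. The script was tested on simulated data. The members and lists were chosen with earlier results of these data known. All members are named; other lists give counts, at most 4 called genes per treatment with large changes, all S100 genes and a few defining markers. Genes beyond these were chosen after their values were seen. The replicate numbers were not taken as pairs. Alternatives were other probe set rules, a filter on low values, a further quantile normalization, spike-in scaling, an intensity trend, fits of 6 arrays, a replicate block and leaving out each array. Figures were drawn with matplotlib 3.10.9.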

Additional observations from a re-analysis of the deposited data

How the results depend on the processing

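The falls of Camp, Ngp, Elane, Mpo and Mmp9 with either treatment, and those of Ltf and Lcn2 with TSA, kept their direction and their call under each alternative that was run. Members called lower with TSA numbered 7 to 10 over the alternatives and those called higher 0. With arrays set to equal hybridization spike-ins, members called higher with butyrate against untreated cells went to 0 and those called lower to 9, and against TSA 0 were higher and 2 lower. By the construction of that scale the butyrate arrays are shifted down. It turned the butyrate changes of S100a8 (−0.284), S100a9 (−0.209) and Prtn3 (−0.0987) against untreated cells, and those of S100a8 (−0.148), S100a9 (−0.0776), Camp (−0.265), Ngp (−0.220), Elane (−0.179) and Mpo (−0.075) against TSA. Over all genes it gave 927 higher and 8441 lower with butyrate and 101 higher and 9645 lower for butyrate against TSA, where the deposited scale gave 4166, 3075, 1968 and 2480.

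An intensity trend in the spread called S100a8, S100a9 and Prtn3 lower with TSA (10 members in all). The filter on low values called S100a8 and Prtn3 lower (9 members), and a further quantile normalization called S100a8 lower (8 members). Without 1 array, members called lower with TSA stayed at 7, with butyrate 2 to 3 were higher and 5 to 6 lower, and 7 to 9 were higher in butyrate than in TSA with 0 lower.

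Deviations of same-numbered arrays from their group means correlated between −0.12 and 0.21, and 3 of 9 arrays correlated best with their own number, so the numbers were not treated as pairs. With the replicate block 7 members were lower with TSA, 3 higher and 5 lower with butyrate, and 8 higher in butyrate than in TSA. Elane lost its call there (0.20, adjusted p = 0.0688).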
